A study of Mus musculus with 25 samples.

Results

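The genes described here encode the subunits of the mitochondrial respiratory chain and ATP synthase that are carried by the nuclear genome. They were taken by name: all genes of the deposited count matrices whose symbol starts with Ndufa, Ndufb, Ndufc, Ndufs, Ndufv, Sdh, Uqcr, Cox4, Cox5, Cox6, Cox7, Cox8 or Atp5, leaving out symbols that hold "-ps" (pseudogenes) or name the assembly factors Ndufaf and Sdhaf. This gave 86 of 22439 genes, with 38 in complex I, 4 in complex II, 8 in complex III, 18 in complex IV and 18 in complex V. Of these, 84 symbols matched the GENCODE annotation of GRCm38, where they are protein-coding genes spread over 19 nuclear chromosomes.

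Single myeloid cells were sorted from the lesioned mouse spinal cord and sequenced as droplet libraries that count unique molecular identifiers (UMIs) near the 3′ end of each transcript. The 25 libraries hold 30958 cells, each library is 1 sort from 1 to 3 mice, and tissue came from a 5 mm length around the lesion at day 1, 2, 3, 10 or 21 after injury (D1 to D21) or from mice with laminectomy only (Ctrl). Of these, 12 libraries came from Cx3cr1CreERT2 mice sorted as YFP+ (called mixed here, since they hold resident and infiltrating cells). The others came from Cx3cr1CreERT2:R26tdTomato mice, sorted as RFP+/YFP+ (resident, 5 libraries) or RFP-/YFP+ (infiltrating, 7 libraries), except that 1 D3 library is titled infiltrating but carries the resident sort label and was kept out of the main comparisons. All groups, controls included, carried the Cx3cr1CreERT2 allele, and the sort takes only cells that report the Cx3cr1 locus, so other cells of the lesion are not represented.

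Complexes I to IV pass electrons from NADH and succinate to oxygen, and complexes I, III and IV pump protons across the inner mitochondrial membrane, from which complex V makes ATP. A core of subunits is encoded by mitochondrial DNA, and the nuclear-encoded majority is translated in the cytosol and imported. Myeloid cells are known to change the balance between glycolysis and oxidative phosphorylation when they are activated, and some subunits exist as isoforms whose exchange tunes complex IV or ATP synthase.

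Total UMIs per library ran from 486649 to 33204422, over 155 to 3800 cells, and 127 barcode sequences occurred in more than 1 library. The authors' 4 cell type codes carry no names in the file, so they were read from markers: 9 of 9 microglia markers stood out in the first code (13289 cells), 6 of 9 macrophage and 4 of 8 monocyte markers in the second (macrophages, 12841 cells), 6 of 8 dendritic cell markers in the third (dendritic-like, 2712 cells) and 7 of 7 neutrophil markers in the fourth (neutrophil-like, 2116 cells). In the third code 3 of 8 monocyte markers (Ccr2, Plac8 and Ifitm6) stood out too. Counts were summed per library and cell type where at least 20 cells were present, and the library is the replicate. Microglia entered the time comparisons from 2 Ctrl, 3 D1, 3 D2, 5 D3, 3 D10 and 1 D21 library of the resident and mixed sorts. Ctrl mixed 1 came from female and Ctrl resident 1 from male mice, so the 2 controls differ in sex, sort, strain and pool at once. The D1 libraries of microglia were male and the D21 library female, while D2, D3 and D10 held both sexes. Both D3 libraries of the macrophage time comparisons were male. The lone D21 library is assumed to vary like the others. The labels do not say that libraries of a group came from separate experiments, so p-values measure the spread between these libraries. Libraries D3 mixed 1 and D3 mixed 2 form a sequencing pool of their own and stood apart from the other D3 microglia for several subunits, as given below.

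Microglia held a larger share of subunit transcripts at every time after injury than in the laminectomy controls. The 86 genes made up 1.16% of microglial UMIs in Ctrl mixed 1 and 1.31% in Ctrl resident 1. At D1 the 3 mixed libraries held 2.66%, 2.73% and 2.74%. At D2 the share was 2.35% in the resident library and 2.93% and 2.48% in the mixed ones. The 5 D3 libraries ran from 2.31% to 2.97%, the resident ones holding 2.31% and 2.63%. Every library of D1, D2 and D3 lay above both controls. At D10 the resident library held 2.08% and the mixed ones 2.00% and 1.76%, and the D21 mixed library held 2.05%. The late values thus lay between the controls and the first 3 days. Relative to the control mean, the share stood at 2.19 times on the first day, at 2.09 and 2.13 times on D2 and D3, and at 1.57 and 1.66 times on D10 and D21.

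**Figure D1:**
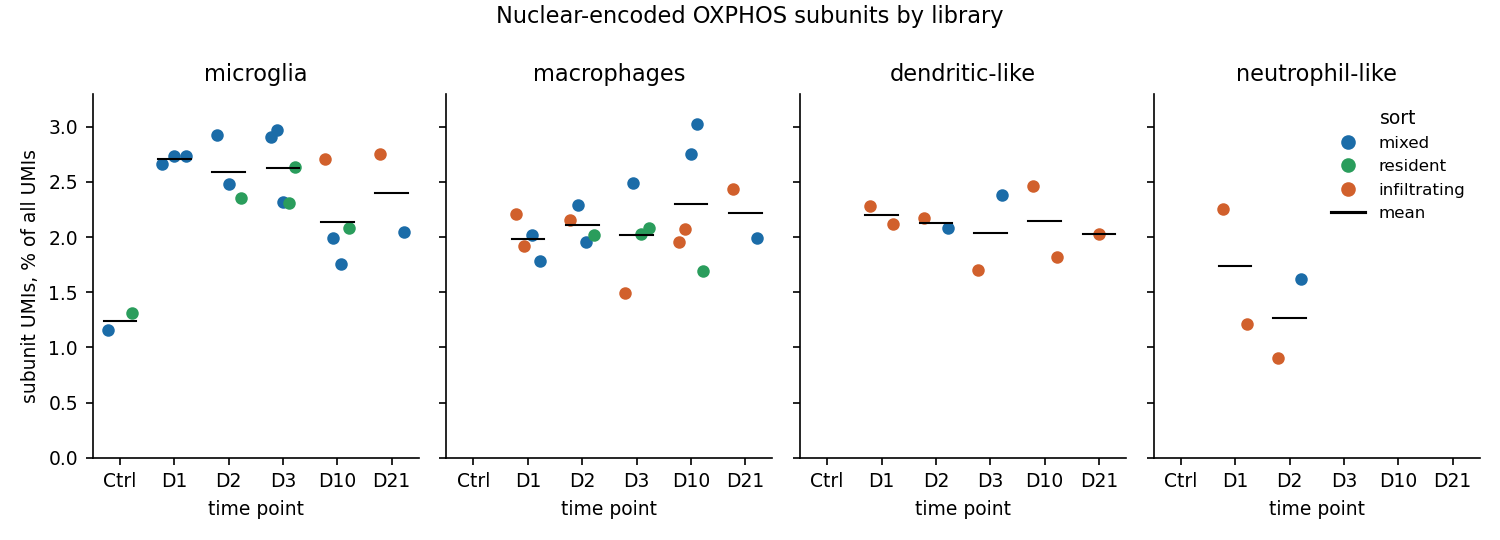
Subunit transcripts as percent of all UMIs (vertical axis) for each library at each time point (horizontal axis), 1 panel per cell type, with points coloured by sort and a bar at the mean of the points. Microglial values sit at 1.16 and 1.31 in the 2 controls and at 1.76 or more in every library after injury; the microglia panel also shows 2 infiltrating-sort sums, at 2.71 and 2.75, which entered the comparisons between cell types and not those over time.

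Counted per cell rather than as a share, microglia carried 49.2 subunit UMIs per cell on average in the controls and 104 at D1. The value was highest on D2, at 126, and it was 69.2 on D3, 80.0 on D10 and 90.3 on D21. Depth differed by day too. The median UMIs per cell averaged 3785 over the controls, 3199 over D2, 2134 over D3 and 2813 over D10 libraries. The mean share was 2.58% on D2 and 2.63% on D3. The part of depth in the values per cell was not tested. By complex, the share at D1 differed in size, without a test of that difference. Complex V reached 2.43 times its control share at D1, complex IV 2.30, complex III 2.25, complex I 1.96 and complex II 1.67. At D10 complex IV stood at 1.84 times and complex II at 1.09 times the control share, and at D21 the same complexes stood at 2.04 and 1.11.

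Other parts of the transcriptome moved with this share. The mitochondrially encoded genes stood at 2.09 times their control share at D1, then at 1.61 and 2.06 times on D2 and D3, and at 1.67 and 2.35 times on D10 and D21. Ribosomal protein genes took 8.73% to 9.41% of microglial UMIs in the controls and 18.7% to 21.2% at D1, 2.20 times the control mean. The summed level of 9 microglia markers was 26611 to 30015 UMIs per 1e6 UMIs (CPM) in the controls and 4787 to 9100 at D1. The 9 macrophage markers summed to 1386 to 1664 CPM in control microglia, where Gpnmb was at 0, and to 3360 to 4450 at D1. Defining monocyte markers stayed near 0 in microglia, at 6.13 to 23.2 CPM for all 8 at D1. The 4 dividing-cell markers summed to 37.2 to 181 CPM in the controls, 39.5 to 252 at D1, 1160 to 1917 at D2 and 891 to 1221 at D3. The part of these shifts in the subunit result was not tested. All injured cells fell outside cluster 1 of the authors, which holds all 1887 control cells and no others.

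Gene by gene, 78 of the 81 members tested in microglia rose at D1 and 1 fell (edgeR's quasi-likelihood test, adjusted p below 0.05 over 10801 genes). Among all genes tested 46.6% passed, 23.9% of them upward and 22.7% downward. The median log2 change of the members was 1.89 and that of all genes -0.01. These changes use edgeR's trimmed-mean (TMM) scaling. Scaled instead by the total UMIs of each sum, an alternative chosen after seeing the data, the median of all genes moved to -0.73 and that of the members to 1.16, with 66 members higher and 2 lower. In plain CPM, each D1 library lay above both controls for 75 of 81 members, against 20% of all genes. The 3 D1 libraries share 1 sequencing pool that holds no control, so pool and day cannot be told apart here.

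In complex I, which takes electrons from NADH, all 37 tested subunits rose at D1, by 0.88 to 2.93 on the log2 scale. The largest change was in Ndufa12, an accessory subunit. Ndufa12 was at 70.4 and 99.8 CPM in the controls and at 364, 386 and 405 CPM at D1 (log2 change 2.93 ± 0.33 SE, adjusted p = 8.2e-06). Its libraries did not overlap between the groups. At the low end stood Ndufa13, known also as GRIM-19, with 234 and 247 CPM in the controls and 289, 270 and 243 CPM at D1 (0.88 ± 0.215 SE, adjusted p = 0.00314). The plain levels of Ndufa13 overlapped, so its call rests on the TMM scaling and was lost with total UMI scaling. The same held for Ndufs1, the largest iron-sulfur subunit of complex I, at 33.6 and 41.0 CPM in the controls and 50.1, 45.6 and 40.8 CPM at D1 (0.99 ± 0.34, adjusted p = 0.0243).

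Complex II, succinate dehydrogenase, also belongs to the tricarboxylic acid cycle, and it moved least. Sdhc, a membrane anchor, was at 38.6 and 45.3 CPM in the controls and at 93.6, 94.3 and 101 CPM at D1 (log2 change 1.94 ± 0.40, adjusted p = 0.000929). Sdhb, the iron-sulfur subunit, was at 122 and 135 CPM and then at 251, 270 and 211 CPM (1.67 ± 0.32, adjusted p = 0.000524). Sdhd, the other anchor, rose by 1.52 ± 0.48 (adjusted p = 0.0149), a call lost with total UMI scaling (0.78, adjusted p = 0.149). The flavoprotein Sdha was the exception. Its levels were 76.3 and 92.2 CPM in the controls and 95.6, 84.6 and 83.3 CPM at D1, which overlap, and its change of 0.63 ± 0.38 did not pass (adjusted p = 0.184; -0.10 with total UMI scaling). Sdha did not pass at any later day either. It was highest in D3 mixed 1 and D3 mixed 2, the 2 libraries of the separate pool, at 171 and 187 CPM, against at most 96.2 CPM in the other tested microglial libraries.

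Complex III passes electrons from ubiquinol to cytochrome c, and its 8 members all rose at D1 on the TMM scale. The calls of Uqcrh, Uqcrc1 and Uqcrfs1 were lost with total UMI scaling. Uqcrq, a small subunit, was at 164 and 179 CPM in the controls and 504, 531 and 537 CPM at D1 (log2 change 2.40 ± 0.25, adjusted p = 4.72e-06). The core proteins changed less, Uqcrc1 by 1.40 ± 0.33 and Uqcrc2 by 1.64 ± 0.27. In complex IV, cytochrome c oxidase, 13 of 15 tested members rose and Cox6b2 fell. Cox5a was at 139 and 183 CPM in the controls and 535, 568 and 549 CPM at D1 (2.44 ± 0.30, adjusted p = 1.57e-05), and Cox4i1, the regulatory subunit found in most tissues, was at 422 and 502 CPM and then at 903, 942 and 927 CPM (1.58 ± 0.24, adjusted p = 9.52e-05). The one complex IV member that did not pass in either direction was Cox7a2l, described with the isoforms below.

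All 17 tested members of complex V rose at D1, by 1.62 to 2.82. Atp5g1, 1 of 3 genes for the membrane ring subunit c, was at 169 and 227 CPM in the controls and at 818, 873 and 801 CPM at D1 (log2 change 2.82 ± 0.27, adjusted p = 2.52e-06). Atp5md, a small membrane subunit, was at 114 and 105 CPM and then at 399, 447 and 499 CPM (2.82 ± 0.41, adjusted p = 6.13e-05). Atp5b, the catalytic subunit, was at 180 and 221 CPM and then at 441, 488 and 603 CPM (2.07 ± 0.41, adjusted p = 0.000708). Each of these genes had D1 libraries wholly above the controls. Atp5o, the stalk subunit, cannot be read with certainty: the symbol Atp5o held 0 UMIs while Atp5o.1 held 40807, and 2 overlapping annotated genes share the name.

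**Figure D2:**
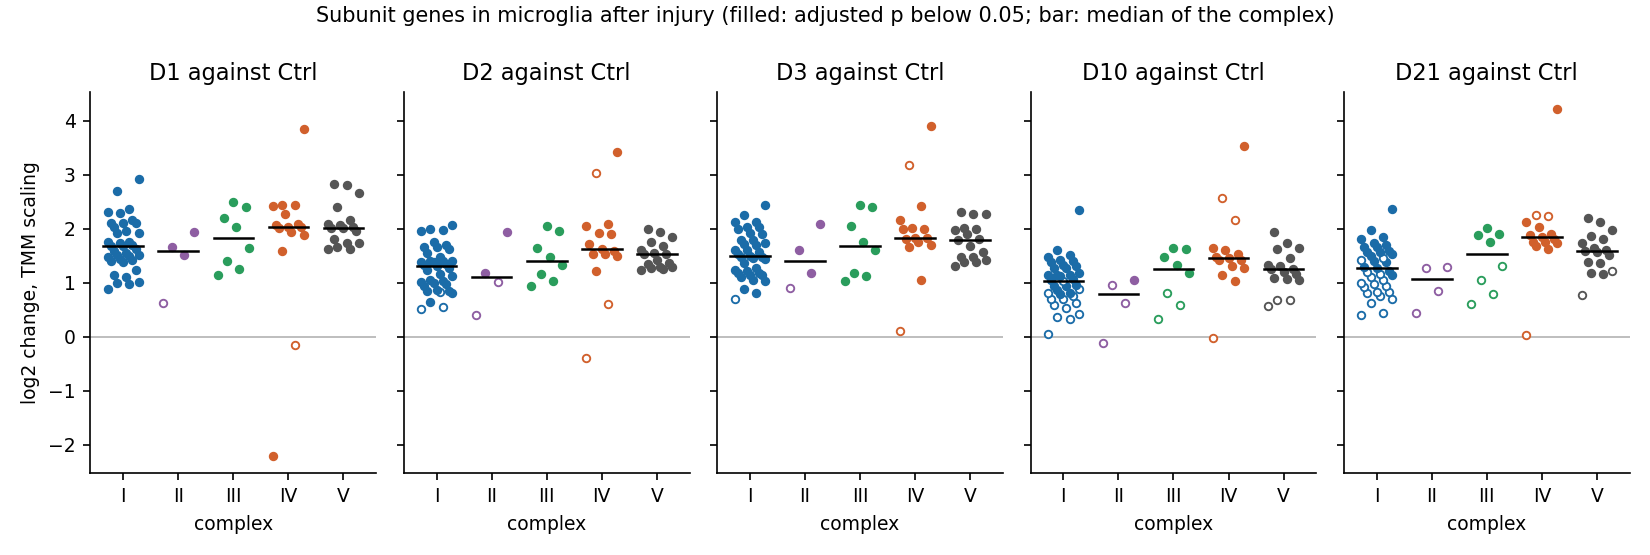
Log2 change of each tested subunit in microglia against the laminectomy controls (vertical axis, TMM scale), 1 panel per day after injury, with genes grouped by complex on the horizontal axis and a bar at each complex's median. Filled points passed adjusted p below 0.05 and open points did not; 78, 73, 77, 56 and 50 of 81 members are filled on the upper side, from the first panel to the last.

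Genes that build and supply the respiratory chain were counted from lists set beside the members. At D1, 17 of 19 genes of mitochondrial import and chaperones rose in microglia (Hspd1, the matrix chaperone HSP60, by 3.01 ± 0.37), as did 10 of 11 electron carriers and nucleotide exchangers (cytochrome c, Cycs, by 3.13 ± 0.41). Of the tricarboxylic acid cycle genes 11 of 16 rose (Idh3a by 2.53 ± 0.42), of the assembly factors 21 of 45 tested (Ndufaf5 by 2.50 ± 0.46) and of the 13 mitochondrially encoded subunits 6 (mt-Nd3 by 2.48 ± 0.78). Of all genes 23.9% rose and 46.6% passed in that comparison. None of 12 tested regulators of mitochondrial biogenesis rose and Nrf1 fell (-0.98 ± 0.32, adjusted p = 0.0205). List medians were 2.21, 1.78, 1.08, 0.75, 1.79 and -0.28 in that order, beside -0.01 for all genes.

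Most members were also above the controls at later times. At D2, 73 of 81 members rose and none fell (17.6% of all genes rose, 29.7% passed in either direction), with a member median of 1.40. At D3, 77 rose and none fell (20.1% of all genes rose, 37.6% passed), with a median of 1.67. At D10, 56 rose and none fell (8.06% of all genes rose and 2.22% fell, 10.3% together), with a median of 1.15, and at D21, in the lone library assumed to vary like the others, 50 were called higher and none lower (6.12% of all genes rose and 0.861% fell, 6.98% together), with a median of 1.52. With total UMI scaling the counts were 60, 64, 29 and 18, the member medians 1.03, 1.08, 0.56 and 0.66, and the medians of all genes -0.40, -0.62, -0.60 and -0.94. In plain CPM every library lay above both controls for 75, 69, 58 and 66 of 81 members, against 19.1%, 11%, 11.7% and 13.8% of all genes.

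The counts of D2, D10 and D21 depended on the 2 controls, while that of D3 was 70 without Ctrl mixed 1 and 69 without Ctrl resident 1. Without Ctrl mixed 1 they were 39 at D2, 12 at D10 and 10 at D21, without Ctrl resident 1 the D10 count was 33, and without D10 resident 1 it was 34. With sequencing pool as a term the D3 count was 10, and the D2 and D10 counts were 65 and 72. D3 resident 1, D3 resident 2 and the pair D3 mixed 1 and 2 lie in pools that hold no other day in this fit. With the pool term the D3 estimate rests on D3 mixed 3, which shares a pool with D2 mixed 1 and D2 mixed 2. With mixed libraries alone, which leaves 1 control, 49 members were called at D3 and 4 at D10. The sex term of that fit comes from D2 mixed 1 and D2 mixed 2, the latter with 23 cells. Within sequencing pools, Ctrl mixed 1 (1.16%) stood beside D10 mixed 1 and D10 mixed 2 (2.00% and 1.76%, with 73 and 66 of 81 members higher in CPM), and Ctrl resident 1 (1.31%) stood beside D2 resident 1 and D10 resident 1 (2.35% and 2.08%, 78 and 73 members higher). Ctrl mixed 1 and D10 resident 1 were female, and the other libraries of these pairs were male.

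By complex at D10, of complex I 24 of 37 members passed, of complex II 1 of 4, of complex III 5 of 8, of complex IV 12 of 15 and of complex V 14 of 17. Sdhb was the complex II gene that passed (1.05 ± 0.30, adjusted p = 0.0312), a call lost with total UMI scaling (0.46, adjusted p = 0.222), and Sdha (-0.12 ± 0.36), Sdhc (0.96 ± 0.37) and Sdhd (0.62 ± 0.45) did not. Ndufa1, an accessory subunit of the complex I membrane arm, had its highest levels late: it was at 95.6 and 105 CPM in the controls, 182 to 205 CPM at D1, and 408, 342 and 265 CPM at D10 (2.35 ± 0.32, adjusted p = 0.000131), with 291 CPM at D21 (2.37 ± 0.39, adjusted p = 0.000798). The lowest D10 library of Ndufa1 was above all D1 libraries. Atp5mpl, a small subunit of ATP synthase, was at 123 and 155 CPM in the controls and at 385, 364 and 311 CPM at D10 (1.95 ± 0.37, adjusted p = 0.00232).

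Between injured time points the differences were fewer. From D1 to D3, 4 members rose and 5 fell in microglia (18.8% of all genes passed, 8.62% upward and 10.2% downward), with a member median of -0.18. Atp5g1 fell from 818, 873 and 801 CPM at D1 to between 382 and 463 CPM in the 5 D3 libraries (-1.15 ± 0.18, adjusted p = 0.00055), and Ndufa12 fell from 364 to 405 CPM to between 177 and 274 CPM (-0.89 ± 0.23, adjusted p = 0.0116). Neither gene's groups overlapped. Ndufab1, the mitochondrial acyl carrier protein, fell by 0.62 on the log2 scale (adjusted p = 0.0283), Uqcrc2 by 0.61 (adjusted p = 0.0406) and Atp5g3 by 0.60 (adjusted p = 0.0325). Cox7a2l (1.21 ± 0.22, adjusted p = 0.00126), Ndufa13 (0.57 ± 0.16, adjusted p = 0.0225) and the scarce Cox7a1 and Cox6b2 rose. With total UMI scaling only Atp5g1 and Ndufa12 were still called lower, while the same 4 genes were called higher. The calls of Atp5g3, Ndufab1 and Uqcrc2 were lost there, although Atp5g3 (-0.46) and Ndufab1 (-0.48) stayed below 0. The count of 9 was 3, 3 and 5 without D1 mixed 1, 2 and 3. Over the same interval 12 of 19 import and chaperone genes fell, led by Hspd1 (-1.91 ± 0.25) and Tomm40 (-1.64 ± 0.22).

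From D3 to D10, 17 members fell and 1 rose (3.92% of all genes fell and 2.96% rose, 6.88% together), with a member median of -0.53 beside 0.05 for all genes. Ndufs6, which is needed for the electron-input module of complex I, was at 165, 179, 202, 203 and 174 CPM at D3 and at 102, 84.8 and 74.3 CPM at D10 (-1.11 ± 0.21, adjusted p = 0.00562). Uqcrc1 was at 127, 123, 254, 273 and 175 CPM and then at 81.2, 77.2 and 71.2 CPM (-1.27 ± 0.26, adjusted p = 0.00966). Atp5b was at 395, 356, 756, 733 and 275 CPM and then at 216, 204 and 180 CPM (-1.32 ± 0.32, adjusted p = 0.0214). No D10 library reached a D3 library for these 3 genes, and D3 mixed 1 and 2 gave the highest D3 values of Uqcrc1 and Atp5b. Sdhc fell by 1.13 on the log2 scale (adjusted p = 0.0385). The call count of 18 was unstable: it was 8 without D1 mixed 2, 34 without D3 resident 1, 9 without D3 resident 2, 7, 6 and 31 without D3 mixed 1, 2 and 3, 4 without D10 resident 1, 1 without D10 mixed 1 and 0 without D10 mixed 2. The 4 dividing-cell markers summed to 891 to 1221 CPM at D3 and 137 to 261 CPM at D10, and without clusters 6, 7 and 10 the count was 4. DESeq2 called 40 and mixed libraries alone gave 2. The count was also 0 with sequencing pool as a term, where the change of Sdhc turned to 0.41. With that term the D3 side rests on D3 mixed 3 alone.

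Isoforms of complex IV and of ATP synthase did not move as a block. Since counts are taken near the 3′ end and the treatment of reads shared by paralogs is not given in the sources used here, ratios between isoforms are compared between libraries and not read as which gene is more abundant. Such ratios do not depend on the scaling of the library. Stretches upstream of the RefSeq start sites are shown for genes of the isoform sets, because paralogs in a set differed in course. Cox6a2 is not among them. Promoters of 68 of the 86 members matched the RefSeq table (GRCm38.p6), as 73 windows of 300 bases from 250 before to 50 after a start. Each line gives 150 bases, 5′ to 3′ on the gene's strand, chosen as the nearest run to the start without annotated exon bases (2 bases of the Cox6a1 stretch are exonic). The stretches of Atp5g2 and Cox7a2l lie in an intron of a longer annotated transcript, and the others lie outside annotated genes. Capitals mark a match on either strand to 1 of 4 motifs searched: GCATGCGC for NRF1, AAGATGGCG for YY1, CCGGAAGT for ETS factors and TCAAGGTCA for the estrogen-related receptor.
Atp5g1 (chr11:96075671-96075820, minus strand): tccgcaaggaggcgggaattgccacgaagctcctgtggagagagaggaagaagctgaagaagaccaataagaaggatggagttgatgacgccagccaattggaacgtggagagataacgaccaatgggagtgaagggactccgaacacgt
Atp5g2 (chr15:102671128-102671277, minus strand): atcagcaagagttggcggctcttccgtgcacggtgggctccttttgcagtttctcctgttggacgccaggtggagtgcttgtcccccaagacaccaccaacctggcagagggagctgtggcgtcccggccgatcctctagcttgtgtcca
Atp5g3 (chr2:73911327-73911476, minus strand): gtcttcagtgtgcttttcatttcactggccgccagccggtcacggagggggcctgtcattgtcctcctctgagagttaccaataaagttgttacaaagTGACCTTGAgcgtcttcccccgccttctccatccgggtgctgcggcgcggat
Cox6a1 (chr5:115348980-115349129, minus strand): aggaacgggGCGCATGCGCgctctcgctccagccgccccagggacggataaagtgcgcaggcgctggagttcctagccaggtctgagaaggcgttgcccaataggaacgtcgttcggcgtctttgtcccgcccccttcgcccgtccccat
Cox7a2 (chr9:79759879-79760028, minus strand): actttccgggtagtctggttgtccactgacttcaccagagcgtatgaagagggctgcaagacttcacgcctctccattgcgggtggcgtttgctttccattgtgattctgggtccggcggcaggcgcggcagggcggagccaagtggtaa
Cox7a2l (chr17:83514334-83514483, minus strand): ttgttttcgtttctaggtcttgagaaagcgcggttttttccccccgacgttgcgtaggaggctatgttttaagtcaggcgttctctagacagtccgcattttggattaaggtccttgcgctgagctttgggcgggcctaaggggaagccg

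In these stretches Cox6a1 holds 2 overlapping NRF1 matches, 1 on each strand, Atp5g3 holds the estrogen-related receptor motif on the opposite strand, and the other 4 hold none of the 4 motifs. Over whole 300-base windows, GCATGCGC occurred in 10 of 73 member promoters (13.7%), against 2.71% of all 32851 promoters. AAGATGGCG occurred in 7 (9.59% against 1.40%), CCGGAAGT in 5 (6.85% against 3.89%) and TCAAGGTCA in 2 (2.74% against 0.423%). The Atp5g2 window holds GCATGCGC nearer its start than the stretch shown. These are matches of letters only.

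Subunit c is made from Atp5g1, Atp5g2 and Atp5g3, whose precursors differ in the import sequence while the mature protein is the same. In microglia Atp5g1 gave 26.2% and 29.4% of the UMIs of the 3 genes in the controls and 43.2% to 45.8% at D1. It returned to 28% to 31.4% at D2 and gave 27.0% to 39.0% at D3, 23.5% to 25.3% at D10 and 26.6% at D21. The D1 libraries lay above all others. Atp5g2 was the counterpart: its levels were 384 and 434 CPM in the controls, 664 to 795 CPM at D1 and 663 to 676 CPM at D10 (log2 change at D10 1.31 ± 0.26, adjusted p = 0.00271). Atp5g3 rose at D1 by 2.40 ± 0.26 (adjusted p = 7.31e-06) and gave 14.3% to 14.5% of the 3 in the controls and 16% to 16.7% at D1. In macrophages Atp5g1 gave 38.1% to 41.3% at D1, 43.3% to 44.3% at D2, 32.3% and 44.4% in the 2 D3 libraries, 22.8% to 36.8% at D10 and 27.2% to 27.3% at D21. The D3 and D10 values overlapped.

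Cox7a2l, also called Scaf1 or Cox7rp, is related to the complex IV subunit Cox7a2 and is known for its part in joining complexes III and IV into supercomplexes. In microglia it was at 241 and 203 CPM in the controls and at 128, 120 and 154 CPM at D1. All D1 libraries lay below both controls, while Cox7a2 went from 165 and 176 CPM to 431, 416 and 410 CPM (2.07 ± 0.26, adjusted p = 1.96e-05). On the TMM scale the Cox7a2l change at D1 did not pass (-0.16 ± 0.28, adjusted p = 0.66), and with total UMI scaling it was -0.90 (adjusted p = 0.00923). The UMIs of Cox7a2l per UMI of Cox7a2 were 1.46 and 1.16 in the controls and 0.289 to 0.376 at D1. They then stood at 0.519 to 1.02 at D2, 0.665 to 1.1 at D3, 0.896 to 1.42 at D10 and 1.23 at D21. The control range was thus overlapped again at D10 and D21. Against the controls Cox7a2l rose at D3 (1.04 ± 0.26, adjusted p = 0.00515), D10 (1.03 ± 0.27, adjusted p = 0.0181) and D21 (1.76 ± 0.34, adjusted p = 0.00276), and all 3 calls were lost with total UMI scaling (0.45, 0.44 and 0.90). The D3 and D10 calls were also lost without Ctrl resident 1, and the D10 call without D10 resident 1.

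Cox6a2, known as the isoform of heart and skeletal muscle, showed the largest late change. It was at 13.2 and 11.9 CPM in control microglia, at 42.9, 27.6 and 16 CPM at D1, and at 51.1, 25.6 and 37.0 CPM at D2. The D3 libraries ran from 28.7 to 71.5 CPM, the D10 libraries stood at 126, 75.2 and 82.0 CPM and the D21 library at 143 CPM. All injured libraries exceeded the controls, and those of D10 and D21 exceeded all earlier ones. The change against the controls was 2.08 ± 0.46 at D1 (adjusted p = 0.00159), 3.53 ± 0.46 at D10 (adjusted p = 9.9e-05) and 4.22 ± 0.55 at D21 (adjusted p = 0.000103), and it was 2.95 and 3.35 at the last 2 times with total UMI scaling. The D10 call was lost in mixed libraries alone, where Ctrl mixed 1 is the only control. From D3 to D10 it rose by 1.11 ± 0.32 (adjusted p = 0.0467), a call lost under 20 alternatives, total UMI scaling among them (adjusted p = 0.0532). Per 100 UMIs of Cox6a1, its widely expressed counterpart, microglia held 7.21 to 10.2 of Cox6a2 in the controls, 4.54 to 11.2 at D1, 6.27 to 14.5 at D2, 4 to 28.3 at D3, 27.8 to 52.2 at D10 and 52.2 at D21. The D3 and D10 ranges of this ratio overlapped, through D3 resident 1 at 28.3. Cox6a1 rose as well at D1 (1.94 ± 0.38, adjusted p = 0.00058), and the ratio at D10 and D21 lay above the control range in all 4 libraries.

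**Figure D3:**
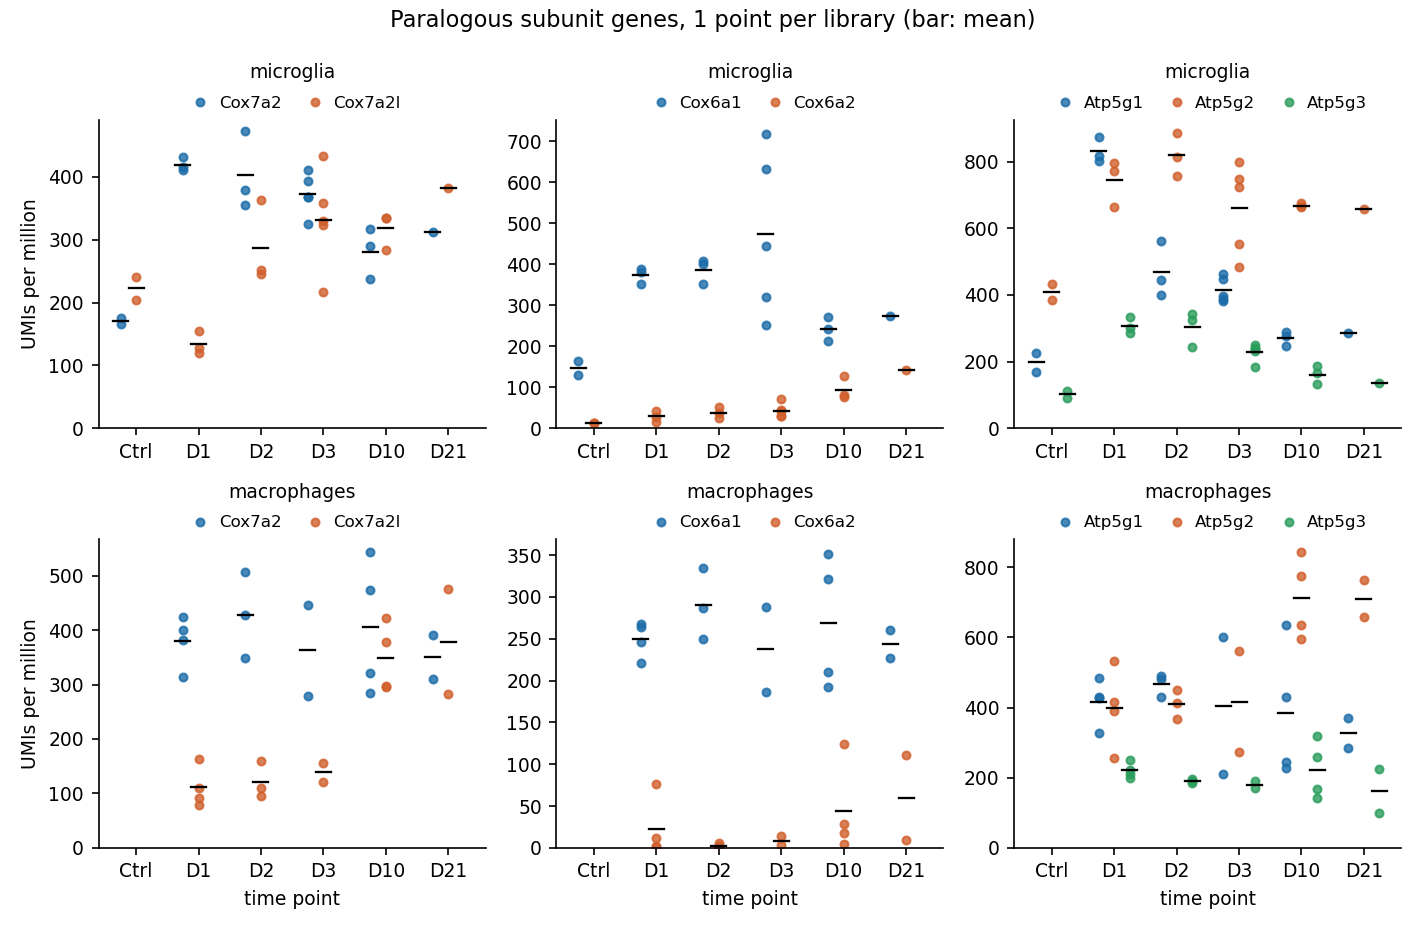
Levels of paralogous subunit genes in CPM (vertical axis) at each time point (horizontal axis) in microglia (top) and macrophages (bottom), 1 point per library and a bar at the mean. Left panels show Cox7a2 and Cox7a2l, middle panels Cox6a1 and Cox6a2, and right panels the 3 Atp5g genes; microglial Cox7a2l is lowest at D1, at 128, 120 and 154, while Cox7a2 stands above 400 there.

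The other isoforms were scarce. Cox4i2, the isoform known from lung and low oxygen, had 0 and 1 UMI in the controls and 1.09, 3.7 and 2.09 CPM at D1 (3.86 ± 1.18, adjusted p = 0.0132), a value that depends on so few counts and was lost without Ctrl mixed 1. Cox7a1, the other muscle isoform, was at 0.536 and 1.62 CPM in the controls, 1.53 to 3.25 CPM at D1, 6.16 to 8.52 CPM at D2 and 3.97 to 11.6 CPM at D3 (3.91 ± 0.75 against the controls, adjusted p = 0.000818). Cox6b2, known from testis, was the only member to fall at D1, from 2.50 and 4.32 CPM to 0.438, 0.855 and 0.232 CPM (-2.20 ± 0.82, adjusted p = 0.0359). That call was lost when any of 7 single libraries was left out, both controls and D1 mixed 1 and 3 among them. Without D21 mixed 1 the gene did not pass the filter on low counts and was not tested, and with mixed libraries alone the change of Cox6b2 in microglia D1 vs Ctrl turned to 3.58. In that fit the only control is female and the D1 libraries are male. Its sex term comes from D2 mixed 1 and D2 mixed 2, the latter with 23 cells. In plain CPM Cox6b2 was lower in each D1 library than in Ctrl mixed 1. Cox7b2, Cox8b and Ndufa4l2 had 2, 6 and 17 UMIs in all libraries together and Cox8c had 0, and these 4 genes and Atp5o did not pass the filter on low counts in any comparison.

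In macrophages the subunit shares of different days overlapped, and since all control cells were coded as microglia, D1 was the reference for these cells. The 4 D1 libraries of the infiltrating and mixed sorts held 2.21%, 1.92%, 2.02% and 1.79%, and the D2 libraries 2.15%, 2.29% and 1.96%. At D3 the infiltrating library held 1.49% and D3 mixed 3 held 2.49%. The D10 libraries held 1.95%, 2.07%, 2.75% and 3.02%, the last 2 being the mixed ones, and the D21 libraries 2.43% and 2.00%. Values of early and late libraries overlapped, with the widest spread at D3 and D10.

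From D1 to D3 no macrophage gene of any kind passed with edgeR (0.0% of 8577 genes, 0 of 80 members). At an unadjusted p below 0.05 there were 612 genes and 1 member, and DESeq2 called 16 genes and 0 members. With mixed libraries alone, where D3 is the single library D3 mixed 3, 23 members were higher and none lower. The median of the members was 0.16 beside 0.05 for all genes. It turned to -0.73 without D3 mixed 3 and was 0.68 without D3 infiltrating 1, the 2 libraries that make up D3. From D1 to D10, 3 of 80 members rose and none fell (14.4% of all genes passed, 7.31% upward and 7.04% downward), with a member median of 0.30. The count depended on the sort: with mixed libraries alone, at 2.02% and 1.79% of UMIs on D1 and 2.75% and 3.02% on D10, 21 members were higher and none lower. DESeq2 called 8 higher and 1 lower, and 1 member was called with sums of at least 50 cells or without cluster 2. From D1 to D21, 1 rose (3.56% of all genes passed, 1.95% upward), with a median of 0.33.

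Cox7a2l was the member called higher in macrophages at both late times. It was at 163, 78.2, 110 and 92.4 CPM at D1, at 159, 95.6 and 110 CPM at D2 and at 121 and 156 CPM at D3. It was at 378, 422, 295 and 297 CPM at D10 and at 282 and 475 CPM at D21. All 6 late libraries lay above all 9 early ones. The change from D1 was 1.75 ± 0.32 at D10 (adjusted p = 0.00476; 1.70 with total UMI scaling) and 1.86 ± 0.38 at D21 (adjusted p = 0.0208; 1.65). The D21 call was lost without D1 infiltrating 2, D21 infiltrating 1 or D21 mixed 1 and with pool as a term. The macrophage code held different clusters by day: clusters 8, 11 and 12 reached 20 cells in libraries of D1 to D3 and in none of D10 or D21, where cluster 9 and clusters 2 and 3, which span the microglia code, did. Cluster 9 reached 20 cells early as well, with 52 in D1 infiltrating 1 and 2676 in D3 mixed 3. Cluster 13 had 36 cells in D10 infiltrating 1. The summed microglia markers in macrophages were 291 to 1396 CPM at D1, 998 to 3345 CPM at D10 and 2347 to 4761 CPM at D21. The 4 dividing-cell markers summed to 4.87 to 17 CPM at D1, 61.0 to 1570 CPM at D10 and 20.9 to 1473 CPM at D21, and the 8 monocyte markers to 2602 to 5817, 729 to 5531 and 35.8 to 2704 CPM. Ribosomal protein genes took 10.0% to 14.8% of macrophage UMIs in the tested D1 libraries, 19.9% to 25.4% in those of D10 and 21.3% to 21.8% at D21. The part of these shifts in the change of Cox7a2l was not tested. Per UMI of Cox7a2 the ratio was 0.195 to 0.384 at D1, 0.547 to 1.48 at D10 and 0.722 to 1.53 at D21. Ndufc2, a complex I membrane-arm subunit, rose from 119 to 190 CPM at D1 to 245 to 322 CPM at D10 (0.91 ± 0.28, adjusted p = 0.0439). Ndufa6 rose from 131 to 178 CPM to 231 to 342 CPM (0.85 ± 0.26, adjusted p = 0.042). The groups of both genes did not overlap, but each call was lost on leaving out any of several libraries, so that only Cox7a2l was called without D1 mixed 1, D1 mixed 3, D2 mixed 1, D2 mixed 2, D10 mixed 1, D10 mixed 2, D1 infiltrating 2 or D10 infiltrating 2, and 6 members were called without D3 mixed 3 or without D3 infiltrating 1.

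Cell types were compared inside libraries, with the library as a block. Microglia held a higher subunit share than macrophages in 11 of 14 libraries, by a median of 0.359 percentage points, and the exceptions were D3 mixed 3, D10 mixed 1 and D10 mixed 2. Of 80 members 20 were higher in microglia and 2 lower (15.9% of all genes higher, 19.3% lower, 35.2% passed), with a member median of 0.20 beside -0.03 for all genes. With total UMI scaling 14 were higher and 2 lower. With sums of at least 50 cells 5 were higher and 2 lower, and without cluster 2, which spans both codes, 8 were higher and 2 lower. Complex I gave 11 of the 20, complexes IV and V 3 each, complex III 2 and complex II 1. Sdhc was at 92.0 ± 38.3 CPM in microglia and 55.7 ± 13.2 CPM in macrophages (SD, n = 14 libraries; 0.68 ± 0.15, adjusted p = 0.000367 by edgeR), and Ndufa9, the subunit at the joint of the 2 arms of complex I, at 91.1 ± 27.2 and 59.2 ± 17.1 CPM (0.68 ± 0.14, adjusted p = 0.000315 by edgeR). Cox6a2 was higher by 1.53 ± 0.47 (adjusted p = 0.0111) and Cox7a2l by 0.55 ± 0.15 (adjusted p = 0.00447). Cox6b2 was lower by 1.38 on the log2 scale (-1.38, adjusted p = 0.00384) and Cox7a1 too (-1.1, adjusted p = 0.00751). Of the 13 mitochondrially encoded subunits 10 were higher in microglia, mt-Nd2 by 1.1 ± 0.23. Cells differed in depth: microglial medians ran from 1947 to 3963 UMIs per cell and those of macrophages from 1762 to 15416 in the same libraries.

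Dendritic-like cells differed little from macrophages over 9 libraries, with 3 members higher and 1 lower of 80 (27.0% of all genes passed) and a member median of -0.03. Cox7a2l ran from 198 to 647 CPM (median 406) in dendritic-like cells and from 78.2 to 422 CPM (median 159) in macrophages (1.07 ± 0.17, adjusted p = 1.58e-05 by edgeR). Ndufa6 ran from 215 to 346 CPM and from 127 to 242 CPM (0.70 ± 0.14, adjusted p = 0.000152 by edgeR). Cox6a2 was higher by 1.96 ± 0.62 (adjusted p = 0.0158), a call lost without D1 infiltrating 1, D1 infiltrating 2 or D2 mixed 2. Ndufa4, which is counted here with complex I by its name although its protein is now placed in complex IV, was lower: 125 to 298 CPM against 256 to 558 CPM (-0.88 ± 0.21, adjusted p = 0.00188 by edgeR).

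Neutrophil-like cells had lower levels than macrophages of the same libraries for 47 of 80 members. In the 4 libraries with enough of them, 2 members were higher and the rest did not pass (28.8% of all genes lower and 22.2% higher, 51.0% together), with a member median of -0.83 beside -0.19 for all genes. By complex, 24 of 37 members of complex I were lower, 2 of 4 of complex II, 4 of 8 of complex III, 5 of 14 of complex IV and 12 of 17 of complex V. Their share was 0.906% to 2.26%, against 1.92% to 2.21% in macrophages of the same libraries, and was higher in 1 of the 4. In the library with conflicting sort labels, which was left out, it was 2.55% in 897 neutrophil-like cells and 2.10% in macrophages. Ndufa5 was at 5.83, 10.4, 14.1 and 27.4 CPM in neutrophil-like cells and at 86.9, 90.5, 92.8 and 93.9 CPM in macrophages (-2.77 ± 0.32, adjusted p = 3.37e-08 by edgeR). Ndufa11, a membrane-arm subunit, was at 8.75 to 72.8 CPM against 166 to 206 CPM (-2.76 ± 0.285, adjusted p = 3.77e-09 by edgeR). Neither gene's ranges overlapped. Ndufa7 was higher by 0.47 ± 0.18 (adjusted p = 0.0249), and Cox8a, at 901 to 1397 CPM against 602 to 860 CPM, by 0.46 ± 0.18 (adjusted p = 0.0315). All 13 mitochondrially encoded subunits were lower (mt-Co3 -3.65 ± 0.39), taking 0.146% to 0.175% of UMIs against 0.681% to 1.64%. Median UMIs per cell were 1918 to 2871 in neutrophil-like cells and 8330 to 12253 in macrophages, and the part of depth in the result was not tested.

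**Figure D4:**
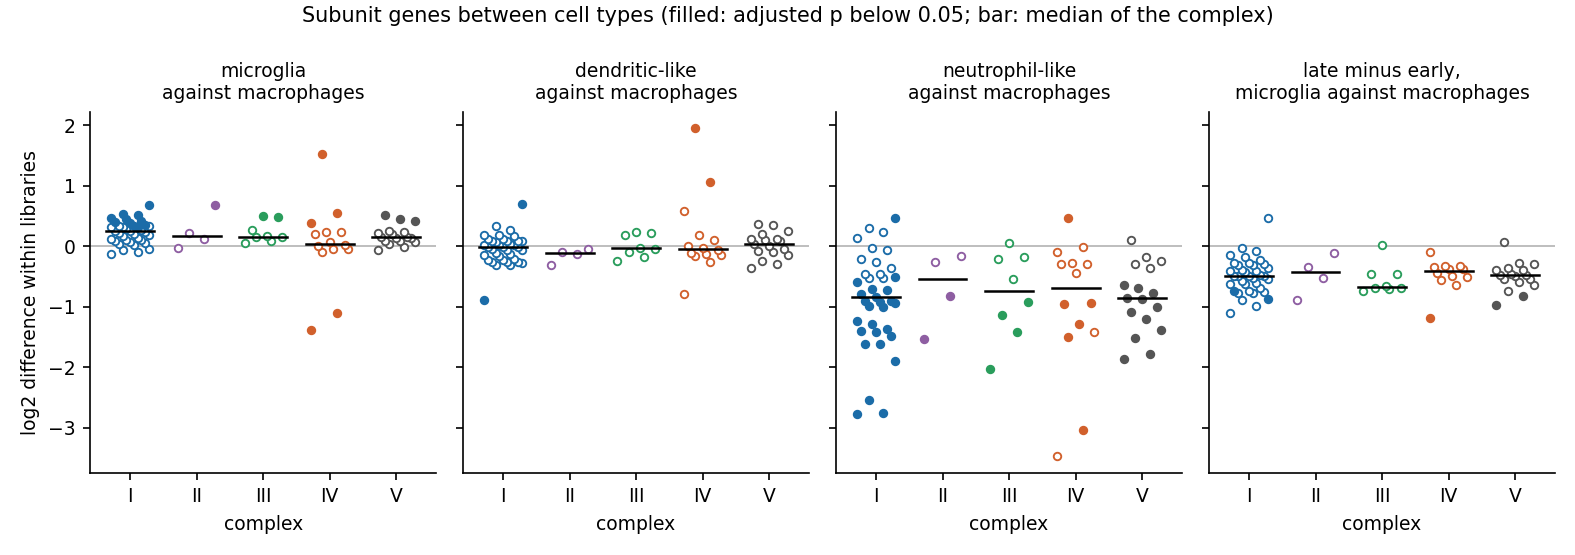
Log2 difference of each tested subunit between microglia, dendritic-like or neutrophil-like cells and macrophages of the same libraries (vertical axis, TMM scale), and in the last panel the late minus early change of the microglia difference, with genes grouped by complex on the horizontal axis. Filled points passed adjusted p below 0.05; in the neutrophil-like panel 47 of 80 are filled below 0.

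Whether the difference between microglia and macrophages changed from early (D1 to D3) to late (D10 and D21) libraries was tested as an interaction. Of 78 members 5 had a difference that fell and none one that rose (11.3% of all genes passed, 7.57% downward and 3.76% upward), no larger a share than that of all genes, with a member median of -0.49 beside -0.01 for all genes. The largest was in Cox7a2l (-1.18 ± 0.23, adjusted p = 0.00251 by edgeR). It stood at 251 ± 84.3 CPM in early and 335 ± 100 CPM in late microglia, and at 124 ± 29.5 CPM in early and 356 ± 79.0 CPM in late macrophages (SD, n = 8 early and 6 late libraries). The late microglial sums include D10 infiltrating 2 (36 cells) and D21 infiltrating 1 (41 cells), where the 9 macrophage markers summed to 20889 and 15179 CPM and, in the latter, 3 red cell markers to 14392 CPM, against 5196 to 8617 CPM of macrophage markers in the other late microglia. With sums of at least 50 cells, which leaves both out, the change of Cox7a2l was -1.18 (adjusted p = 0.0338). Atp5g2 (-0.96 ± 0.22, adjusted p = 0.00809 by edgeR) was at 771 ± 65.9 and 688 ± 59.5 CPM in microglia and at 434 ± 92.3 and 699 ± 112 CPM in macrophages. Ndufb11 (-0.87, adjusted p = 0.0244) and Atp5a1, the other catalytic-head subunit of ATP synthase (-0.82, adjusted p = 0.0203), also passed. With total UMI scaling 4 members passed. The count was 1 with sums of at least 50 cells, 2 without cluster 2 and 1 without clusters 6, 7 and 10. It was 3 without D3 resident 2, 19 without D3 mixed 3, 10 without D10 resident 1 and 2 without D10 mixed 1 or D10 mixed 2. Of the mitochondrially encoded subunits, 12 of 13 had a difference that fell, led by mt-Cytb (-1.81 ± 0.25).

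The authors' 16 clusters are described without a test, since clusters were drawn from the expression of these same cells. The subunit share of cluster 1, the control microglia, had a median of 1.24% over its 2 libraries. Among microglia of injured cord, cluster 4 was lowest at 1.61%, cluster 3 stood at 2.24%, cluster 5 at 2.65% and cluster 6 at 2.83%. Cluster 3 and cluster 2 each span 2 codes. Cluster 2, which spans the microglia and macrophage codes and has a median of 1876 UMIs per cell, was highest at 3.12%. Inside libraries that held both clusters, cluster 5 lay above cluster 3 in 10 of 10, cluster 3 above cluster 4 in 6 of 6 and cluster 2 above cluster 5 in 12 of 12, while cluster 5 lay above cluster 6 in 2 of 8. Cluster 4 cells had a median of 5827 UMIs, more than the 2272 of cluster 3 and 3683 of cluster 5. Among macrophages, cluster 11 stood at 1.88% and lay below cluster 8 (2.35%) in 7 of 7 libraries and below cluster 12 (2.10%) in 5 of 5. Cluster 8 lay above cluster 9 (1.74%) in 4 of 4, and cluster 11 lay below cluster 9 in 4 of 4, although the median of cluster 9 over all its libraries is the lower one. Cluster 14 had the lowest median of the 16, 0.844%, from 2 libraries with 49 and 23 of its cells.

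**Figure D5:**
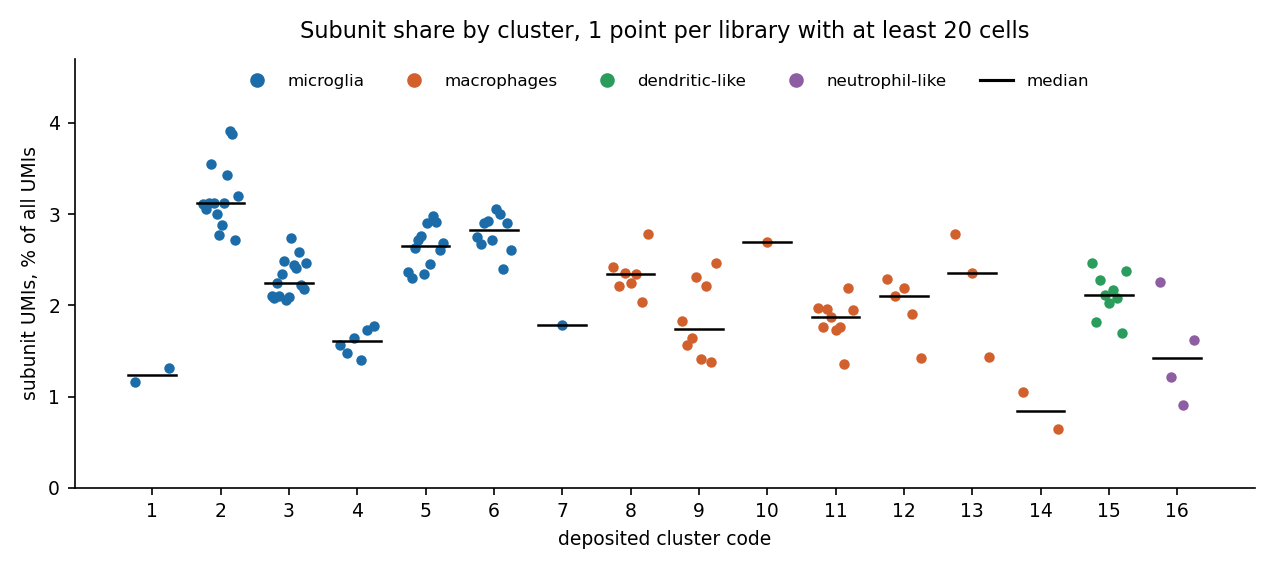
Subunit transcripts as percent of UMIs (vertical axis) in each of the authors' clusters (horizontal axis), 1 point per library with at least 20 cells of the cluster, coloured by the cell type that holds most of it. Medians run from 0.844 in cluster 14 to 3.12 in cluster 2, and the 2 control libraries of cluster 1 sit at 1.16 and 1.31.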

How the data were processed

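Single-cell counts per gene and cell were deposited by the authors as raw UMI count matrices, 1 per library, with a cell annotation giving cluster, cell type code and sequencing pool. Cell Ranger 3.1.0 and the builds GRCm38 and mm10 are named per the submitters' processing notes. The mitochondrial percent per cell is in the authors' deposited annotation, and percentages in the text were computed from the counts. Doublet treatment is not given in the sources used here, and no caller was run on the annotated cells.

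Counts were summed per library and cell type (at least 20 cells) and tested with edgeR 4.0.16 (R 4.3.3, TMM scaling, quasi-likelihood test, time and sex as terms, or library as a block between cell types), with Benjamini-Hochberg adjustment over all genes and a threshold of 0.05. DESeq2 1.42.0 was an alternative, limma 3.58.1 was loaded by edgeR, and other alternatives are in the closing section. Named genes are the 4 members with the largest change in each direction per comparison, the isoform sets and Sdha to Sdhd. Further subunits of each complex were named after their values were seen. Members and lists were chosen with earlier results of these data known. The library with conflicting labels was left out. Tested on simulated data for D1 against Ctrl (10276 genes), the fit recovered 5 of 100 genes changed 2-fold and 48 of 100 changed 4-fold. For macrophages of D10 against D1 it recovered 21 and 85, and for microglia against macrophages within libraries 75 and 97. The simulation gave all genes the same spread, so recovery of the members may differ. Counts cover all tested members, and 1 of them is not reported here by name.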

Additional observations from a re-analysis of the deposited data

Results flagged for a closer look

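The mitochondrially encoded share of macrophage UMIs at D10 was 1.53% in D10 mixed 1, apart from the other 3 libraries of that day at 1.66%, 1.67% and 1.68%. Of 9 checks, this was the 1 with a library so far from the rest, and chance alone marks about 1 check in 20. A check is a large enough group under 1 measure: the subunit share, the mitochondrially encoded share or the ratio of these.

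The difference between microglia and macrophages changed from early to late libraries by an interaction term, for no larger a share of the members than the 7.57% of all genes that fell. The log2 changes were -1.18 for Cox7a2l, -0.96 for Atp5g2, -0.87 for Ndufb11 and -0.82 for Atp5a1. Ndufb11 was at 273 ± 37.7 CPM in early and 244 ± 49.2 CPM in late microglia, and at 184 ± 46.3 and 279 ± 77.9 CPM in macrophages (SD, 8 early and 6 late libraries). Atp5a1 was at 347 ± 64.5 and 228 ± 31.5 CPM in microglia and at 258 ± 10.4 and 288 ± 67.8 CPM in macrophages.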

How the results depend on the processing

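Counts of called members that moved by over 1.5 times are given by setting, and the cause was not tested. Total UMI scaling, chosen after seeing the data, gave 29 at D10 and 18 at D21 in microglia. Mixed libraries alone gave 49 at D3, 4 at D10, 5 for D3 against D1 and 2 for D10 against D3 in microglia, and 23 at D3 (a single library) and 21 at D10 in macrophages. A pool term gave 10 at D3 and 0 for D10 against D3 in microglia and 0 at D21 in macrophages. In microglia that term leaves the D3 estimate to D3 mixed 3. DESeq2 gave 40 for D10 against D3, 9 for macrophages at D10 and 7 for dendritic-like cells. No filter on low counts gave 5 for D3 against D1. Sums of at least 50 cells gave 1 for macrophages at D10, 7 for microglia against macrophages and 1 for late minus early. Without cluster 2 these were 1, 10 and 2. Without clusters 6, 7 and 10 the counts were 4 for D10 against D3, 8 for dendritic-like cells and 1 for late minus early. Leaving out each library gave 71 to 79 at D1, 39 to 75 at D2, 69 to 80 at D3, 12 to 61 at D10, 10 to 58 at D21, 3 to 10 for D3 against D1 and 0 to 34 for D10 against D3 in microglia, 0 to 0, 1 to 6 and 0 to 1 in macrophages at D3, D10 and D21, and 15 to 33, 3 to 7, 39 to 51 and 2 to 19 for microglia, dendritic-like cells, neutrophil-like cells and late minus early. Without D10 mixed 2 the dendritic-like count was 7. Log2 changes reversed for Cox6b2 in microglia D1 vs Ctrl with mixed libraries alone (3.58), Sdhd in microglia D3 vs Ctrl with the pool term (-0.72) and Sdhc in microglia D10 vs D3 with the pool term (0.41). The value of Cox6b2 rests on a sex term that comes from D2 mixed 1 and D2 mixed 2. Those with the pool term take D3 from D3 mixed 3. Whether replicate numbers pair the libraries could not be decided. Same-numbered libraries correlated from -0.198 to 0.122, after levels were centred within each day. That centring makes D10 mixed 1 and D10 mixed 2 mirror each other (0.122 and -0.122 with D1 mixed 1). A replicate block gave 5 for D3 against D1 and 19 for D10 against D3. Of 7494 single-gene values under alternatives, 7060 kept direction and side of the threshold, 318 lost the call, 113 gained it and 3 reversed.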
